A study of Homo sapiens with 9 samples.

Results

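The genes of the centrosome and the centriole were read out in KHM-5M cells, a human thyroid cancer line that the study describes as carrying BRAF and TERT promoter mutations. Members were the protein-coding genes of the deposited table whose symbol is CEP followed by a digit, which gave 36 genes, and 22 more genes taken by symbol, namely PCM1, PCNT, CNTROB, CCDC14, CDK5RAP2, STIL, SASS6, CENPJ, NEDD1, OFD1, AKAP9, NIN, NINL, SPICE1 and HAUS1 to HAUS8. Together these are 58 of 58735 genes listed, of which 19951 are protein-coding. Cells were kept for 24 h with DMSO, the solvent, with 0.3 μM YK-4-279 or with 1 μM YK-4-279, a small molecule described as an inhibitor of ETS transcription factors. Each of the 3 groups had 3 samples of poly(A)-selected RNA. All 9 samples came from the same line, so no result extends to other thyroid cancers. The labels do not say whether the replicates were separate cultures, and p-values measure only the spread between these samples.

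Counts summed to between 16903251 and 18238884 per sample, and levels are given in CPM, the count scaled to the sample total. A gene with no count could still hold as many as 3 counts, which is 0.164 to 0.177 CPM, and this covers counting error only. Of the 9 thyroid follicular markers, only 3 had a mean of at least 1 CPM over the samples. PAX8 lay at 161 to 206 CPM and HHEX at 13 to 19.1 CPM, while TG, TSHR and SLC5A5 did not pass 0.222 CPM in any sample. Of the epithelial markers, the keratins KRT8 and KRT18 lay at 1.27e+03 to 1.42e+03 and 404 to 459 CPM, KRT19 and EPCAM at 3.63 to 6.05 and 5.17 to 7.25 CPM, and CDH1 did not pass 0.291 CPM. Leukocyte markers did not pass 0.118 CPM, and COL1A1, a collagen gene of fibroblasts, lay at 321 to 558 CPM, PDGFRB at 35.6 to 58.2 CPM and LUM at 8.25 to 14.2 CPM, while COL1A2, COL3A1 and DCN stayed under 1 CPM.

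The centrosome is the main microtubule-organizing body of an animal cell and consists of a pair of centrioles in a protein cloud, the pericentriolar material, from which microtubules grow. Centrioles are copied once per cell cycle, beginning in S phase, when a ring-like cartwheel of SASS6 and STIL forms beside each old centriole under control of the kinase PLK4. Small granules called centriolar satellites carry proteins to the centrosome, appendages of the older centriole anchor microtubules and the primary cilium, and the augmin complex, made of HAUS1 to HAUS8, branches new microtubules off old ones in the spindle.

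The stretches of 200 bases before the transcription start are shown for the 4 members that passed both the test and a 1.5-fold change at 1 μM, and for CEP55, which alone was called higher in any comparison. They come from RefSeq on GRCh38.p14 and are written 5′ to 3′ on the strand of the gene. CEP152 lies on the minus strand at chr15:48811070-48811269, CCDC14 on the minus strand at chr3:123961230-123961429, AKAP9 on the plus strand at chr7:91940662-91940861, CEP290 on the minus strand at chr12:88142089-88142288 and CEP55 on the plus strand at chr10:93496412-93496611. Capitals mark letters of 2 motifs, found on either strand. CCGGAAG, which holds the shorter GGAA core of ETS sites, was found in CCDC14. TTTGAA, the cell cycle homology region of many genes of G2 and M phase, was found in CEP152, CEP290 and CEP55. It is read as TTCAAA where it lies on the other strand.
CEP152: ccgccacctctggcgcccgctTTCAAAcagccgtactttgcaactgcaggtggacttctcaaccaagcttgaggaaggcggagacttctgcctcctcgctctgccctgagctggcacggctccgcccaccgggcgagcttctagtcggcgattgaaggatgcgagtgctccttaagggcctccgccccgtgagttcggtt
CCDC14: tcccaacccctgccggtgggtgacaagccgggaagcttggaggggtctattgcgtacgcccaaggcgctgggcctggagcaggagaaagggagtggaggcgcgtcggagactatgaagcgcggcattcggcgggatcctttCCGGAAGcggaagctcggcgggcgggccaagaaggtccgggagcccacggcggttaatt
AKAP9: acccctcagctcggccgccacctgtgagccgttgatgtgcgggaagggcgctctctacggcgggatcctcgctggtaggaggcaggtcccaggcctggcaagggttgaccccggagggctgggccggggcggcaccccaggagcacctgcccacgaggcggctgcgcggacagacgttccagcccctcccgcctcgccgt
CEP290: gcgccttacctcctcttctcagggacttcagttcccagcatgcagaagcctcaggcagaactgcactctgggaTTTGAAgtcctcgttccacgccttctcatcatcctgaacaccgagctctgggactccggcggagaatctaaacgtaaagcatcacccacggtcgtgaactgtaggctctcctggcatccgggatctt
CEP55: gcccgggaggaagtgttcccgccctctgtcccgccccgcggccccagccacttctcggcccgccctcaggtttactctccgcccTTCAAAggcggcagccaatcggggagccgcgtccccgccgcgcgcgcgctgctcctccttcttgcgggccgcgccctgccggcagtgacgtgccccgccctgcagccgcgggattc

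In CCDC14 the ETS letters began 59 bases before the start. The TTTGAA letters began 179 bases before the start in CEP152, 127 in CEP290 and 116 in CEP55, which also held a second copy across the start itself and the ETS letters just after it. The stretch of AKAP9 held neither CCGGAAG nor TTTGAA, though it held the shorter GGAA. A match describes letters only and is not shown to be a bound site.

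At 1 μM against DMSO, 21 of the 58 members fell and 0 rose, with 50 log2 fold changes below 0 and 8 above. Called lower were 36.2% of the members, beside 8.99% of the 12900 protein-coding genes tested and 9.95% of all 15617 genes tested (edgeR's quasi-likelihood test, Benjamini-Hochberg adjusted p under 0.05 over all genes). Among protein-coding genes 9.13% were called higher. All 58 members passed the filter on low counts in each comparison. The median log2 fold change of the members was -0.21 (range -1.31 to 0.33), beside 0.01 for the protein-coding genes tested. With no adjustment 29 of the 58 members had p under 0.05, as did 32.6% of the protein-coding genes. Most changes were small, and 4 members were called lower and passed 1.5-fold, namely CEP290, AKAP9, CEP152 and CCDC14. Of the protein-coding genes tested 303, or 2.35%, were called lower and past 1.5-fold, and 201 were called higher and past it.

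All 3 samples at 1 μM lay below all 3 DMSO samples in 25 members, which is 43.1% of them beside 14.1% of protein-coding genes, and above them in 3, beside 24.4% of protein-coding genes, while the groups overlapped in 30. An exact permutation test on 3 against 3 samples cannot give a two-sided p below 0.1 for any single gene. The median member ratio to the DMSO mean was -0.16, -0.16 and -0.13 on the log2 scale in the 3 samples at 1 μM, and between -0.04 and 0.08 in the DMSO samples. The value of 0.08 belonged to DMSO replicate 2, where 41 members lay above the DMSO mean. Members were longer than the protein-coding genes tested (median 7570 against 5145 bases of gene length) and had more reads (median of the mean count 679 against 516), values whose part in the share called was not tested.

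**Figure D1:**
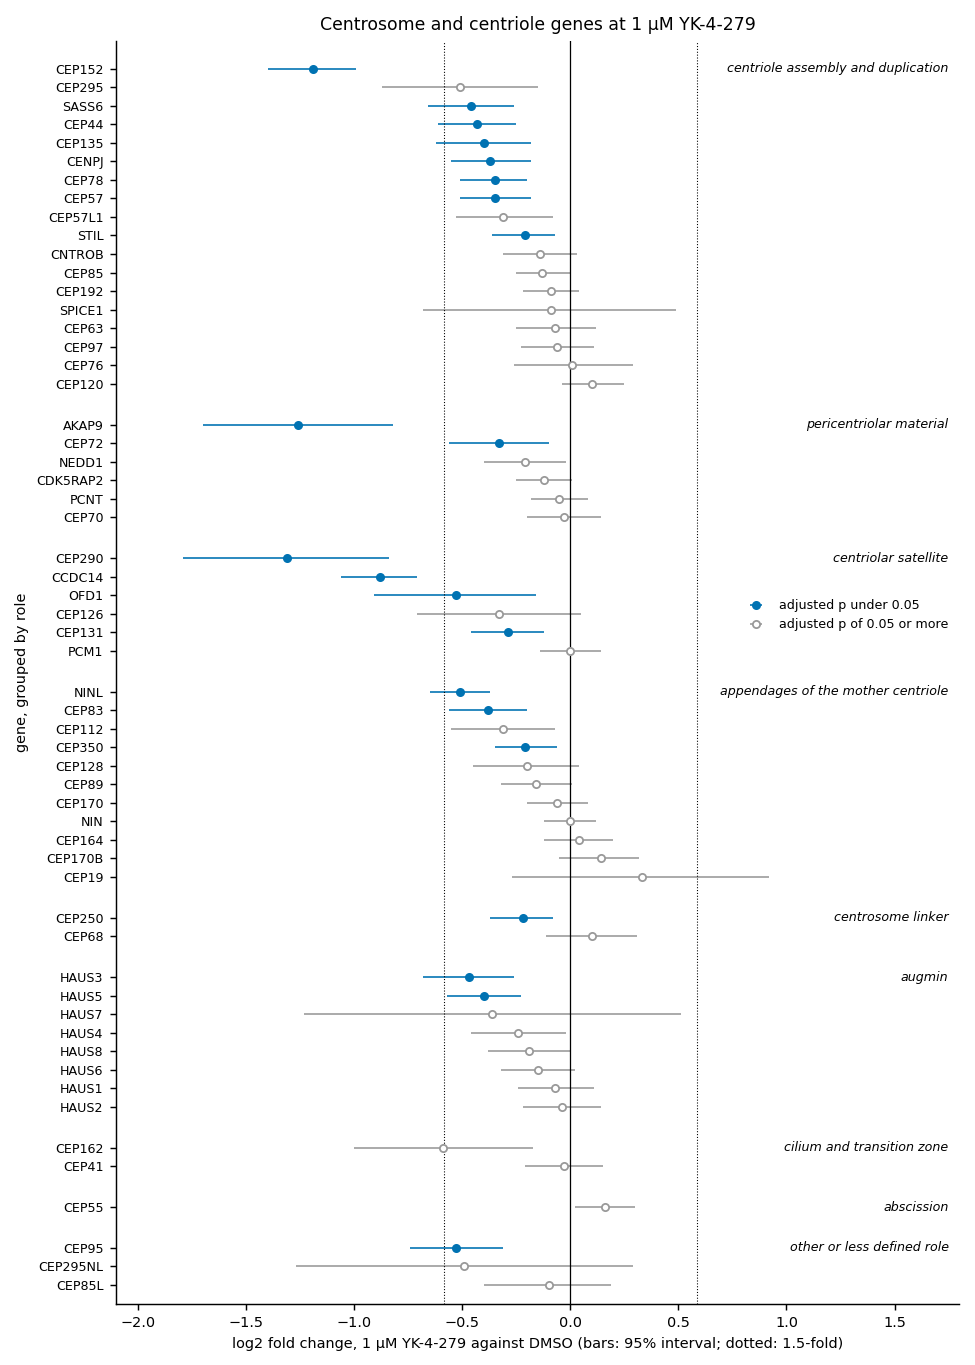
Log2 fold change at 1 μM YK-4-279 against DMSO for 57 of the 58 members, grouped by role, with bars for the 95% interval of edgeR's fit. Filled blue points mark the 21 genes with an adjusted p under 0.05, all of them left of 0, and the dotted lines stand at 1.5-fold, passed on the left by CEP152, AKAP9, CEP290 and CCDC14 among them, while CEP162 on the line was not called.

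Centriole assembly was led by CEP152, the scaffold that recruits PLK4 to the old centriole. CEP152 (ENSG00000103995, chr15:48712928-48811146 of GRCh38 as the deposited table gives it, minus strand) lay at 63.2, 77.5 and 65.5 CPM in DMSO, at 64.6, 65.1 and 66 CPM at 0.3 μM, and at 28.2, 33.9 and 29.7 CPM at 1 μM. The 3 samples at 1 μM were far below the 6 others, which overlapped each other. CEP152 fell by 1.19 on the log2 scale (SE 0.09, adjusted p 8.79e-06), a change of -56.3%.

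Of the 18 members with roles in centriole assembly and duplication, 8 fell (44.4%, beside 8.99% of protein-coding genes), and the median log2 fold change was -0.26. The same 8.99% stands beside the counts of the roles that follow, several of which hold few genes. SASS6, the cartwheel protein, lay at 19.4, 19.6 and 20.2 CPM in DMSO and at 15.3, 14.8 and 13.6 CPM at 1 μM. Its groups did not overlap, and it fell by 0.46 on the log2 scale (SE 0.09, adjusted p 0.00397). CEP135, which joins the cartwheel to the microtubule triplets, had a log2 fold change of -0.40 (adjusted p 0.0163, called in 11 of 14 alternative fits), CENPJ, which sets centriole length, of -0.37 (adjusted p 0.00956, called in 13 of 14) and STIL, the partner of SASS6, of -0.21 (adjusted p 0.0401). STIL was called in only 4 of the 14 alternatives, with adjusted p up to 0.22. CEP44, needed for centrioles to mature into centrosomes, fell by 0.43 (SE 0.08, adjusted p 0.00353), from 36.5 to 42.3 CPM in DMSO to 27.8 to 31.6 CPM at 1 μM. CEP78 fell by 0.35 (SE 0.07, adjusted p 0.00456) and CEP57, a protein of the inner pericentriolar material, by 0.35 (SE 0.08, adjusted p 0.00693).

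The remaining 10 genes of this role were not called. CEP295, which elongates new centrioles, came nearest with -0.51 (adjusted p 0.0521) and was separate between the groups. CEP192, the other PLK4 scaffold, differed by -0.09 with a 95% interval from -0.22 to 0.04, and CEP85, the highest of the role in FPKM at 15.8 FPKM in DMSO (counts scaled to gene length and sample total), by -0.13 with an interval from -0.25 to 0.00. For CEP63, which acts with CEP152, the interval ran from -0.25 to 0.12, and for CEP120 from -0.04 to 0.25.

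Of the 6 genes of centriolar satellites, 4 fell, and the median log2 fold change was -0.43. CCDC14 (ENSG00000175455, chr3:123897305-123961408, minus strand), a satellite protein, lay at 148, 172 and 149 CPM in DMSO, at 133, 145 and 136 CPM at 0.3 μM and at 96, 77.1 and 85.6 CPM at 1 μM. Every sample at 0.3 μM was below every DMSO sample, a change that was not called, and every sample at 1 μM was lower still. CCDC14 fell by 0.88 on the log2 scale at 1 μM (SE 0.08, adjusted p 1.71e-05), a change of -45.8%. The study listed CCDC14 among genes picked on these samples, so its direction is not independent evidence.

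CEP290 (ENSG00000198707, chr12:88049014-88142216, minus strand), which also builds the gate at the base of the cilium, lay at 44.2, 60.5 and 41.5 CPM in DMSO, at 45.3, 48.8 and 45.2 CPM at 0.3 μM and at 14.9, 30.5 and 14.7 CPM at 1 μM. It fell by 1.31 on the log2 scale (SE 0.22, adjusted p 0.00121), the largest fitted change of the 58, and its coefficient of variation at 1 μM, 45.4%, was also the highest among them. The groups did not overlap, although replicate 2 stood above both other samples in DMSO and at 1 μM. OFD1, which works at the distal end of the centriole, fell by 0.53 with an adjusted p of 0.0498 and lay at 4.07 to 7.03 CPM over DMSO and 1 μM. It was called in 4 of 14 alternatives. CEP131 fell by 0.29 (adjusted p 0.0216) and was called in 10 of 14. PCM1, the scaffold that holds satellites together, lay at 215, 239 and 238 CPM in DMSO and at 217, 246 and 241 CPM at 1 μM, a difference of 0.00 with an interval from -0.14 to 0.14.

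In the pericentriolar material 2 of 6 genes fell, with a median of -0.17. AKAP9 (ENSG00000127914, chr7:91940867-92110673, plus strand), a large scaffold of the centrosome and the Golgi that anchors protein kinase A, lay at 59.1, 75 and 56.6 CPM in DMSO, at 62.3, 62.6 and 70.2 CPM at 0.3 μM and at 20.7, 40.6 and 19.9 CPM at 1 μM. As for CEP290, replicate 2 was the highest of its group in DMSO and at 1 μM, and the groups did not overlap. AKAP9 fell by 1.26 on the log2 scale (SE 0.20, adjusted p 0.000922), a change of -58.3%. CEP72 fell by 0.33 (adjusted p 0.0469), but its groups overlapped and it was called in 7 of 14 alternatives. The main scaffolds of this layer were not called, with -0.05 for PCNT (interval -0.18 to 0.08) and -0.12 for CDK5RAP2 (interval -0.25 to 0.01), and NEDD1, which docks gamma-tubulin, had -0.21 with an adjusted p of 0.116.

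Leaving out each sample in turn moved both genes. Leaving out replicate 2 at 1 μM gave the changes of AKAP9 and CEP290 at -1.68 and -1.75 on the log2 scale, while leaving out DMSO replicate 2 gave -1.11 and -1.12, and over the 6 such fits the values ran from -1.68 to -1.08 and from -1.75 to -1.12. Leaving out replicate 2 in both groups, a fit added after seeing the data, gave -1.53 and -1.56. CEP162, a cilium protein, and CEP295, both looked up after their values were seen, shared the high second replicate. CEP162 lay at 9.01, 11.2 and 7.7 CPM in DMSO and at 5.21, 8.43 and 5.32 CPM at 1 μM. Without replicate 2 in either group, 19 members were called lower, of which 16 were among the 21, and 5 passed 1.5-fold.

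**Figure D2:**
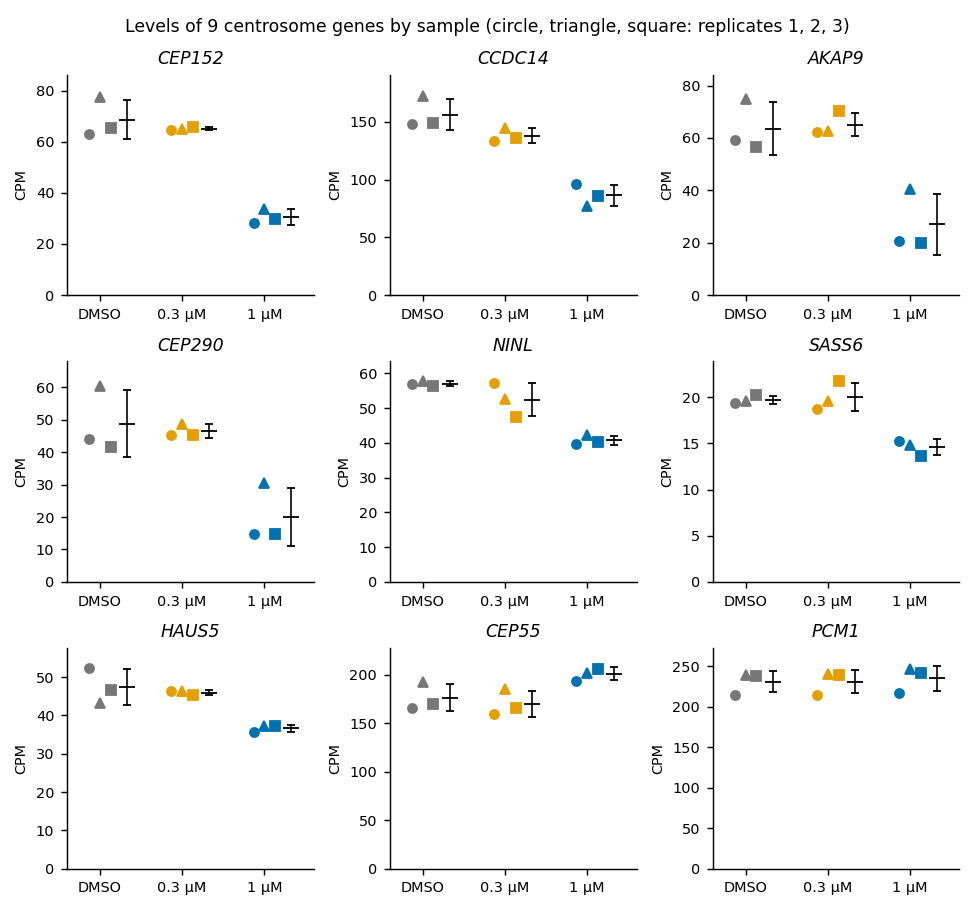
CPM in each sample for 9 members, with circle, triangle and square for replicates 1, 2 and 3 and black marks for mean ± SD (n = 3), each axis starting at 0. CEP152, CCDC14, AKAP9, CEP290, NINL, SASS6 and HAUS5 sit lower at 1 μM than in both other groups, replicate 2 is the highest of its group in DMSO and at 1 μM in AKAP9 and CEP290, CEP55 is higher at 1 μM and PCM1 is level.

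Among 11 genes of the appendages, 3 fell, and the median was -0.16. NINL (ENSG00000101004, chr20:25452705-25585517, minus strand), the ninein-like protein that anchors microtubules, lay at 57, 57.8 and 56.3 CPM in DMSO, at 57.1, 52.7 and 47.5 CPM at 0.3 μM and at 39.8, 42.3 and 40.1 CPM at 1 μM. No sample at 1 μM reached the other 6. NINL fell by 0.51 on the log2 scale (SE 0.07, adjusted p 0.00021). Its paralog NIN differed by 0.00 with an interval from -0.12 to 0.12. CEP83, the first protein of the distal appendages, fell by 0.38 (adjusted p 0.00719) and CEP350 by 0.21 (adjusted p 0.0438). CEP350 was called in 4 of 14 alternatives, with adjusted p up to 0.196. CEP164, which follows CEP83 at the distal appendages, differed by 0.04 (interval -0.12 to 0.20), and CEP170B, the appendage gene with the highest mean FPKM over all samples, by 0.14 (interval -0.05 to 0.32).

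Augmin genes lay below 0 in all 8 cases, with a median of -0.21, and 2 of the 8 fell. HAUS5 lay at 52.4, 43.2 and 46.6 CPM in DMSO and at 35.6, 37.1 and 37.1 CPM at 1 μM, and HAUS3 at 16, 17.6 and 18 CPM and at 12.7, 12.4 and 12.9 CPM. In both genes the samples at 1 μM were all below those in DMSO. HAUS5 fell by 0.40 on the log2 scale (SE 0.08, adjusted p 0.00417) and HAUS3 by 0.47 (SE 0.10, adjusted p 0.00525). The other 6 subunits ranged from -0.36 for HAUS7 to -0.04 for HAUS2, and HAUS1, the highest of them in FPKM, had an interval from -0.24 to 0.11.

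CEP250, which ties both centrioles together as the core of the linker, fell by 0.22 (SE 0.07, adjusted p 0.0354), a call kept in 6 of 14 alternatives and lost with the replicate block (adjusted p 0.0517), while CEP68 of the same linker had 0.10 (interval -0.11 to 0.31). CEP95, whose role is less defined, lay at 35, 43.1 and 38.1 CPM in DMSO and at 31, 24.6 and 26.5 CPM at 1 μM and fell by 0.53 (SE 0.10, adjusted p 0.0028). Of the 3 genes grouped under cilium and transition zone 0 were called (1 with an unadjusted p under 0.05), and CEP41 had -0.03 (interval -0.21 to 0.15). This group does not hold every member that acts at the cilium, since CEP290, which fell, was counted with the satellites.

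CEP55 stood apart from the other members. It brings the membrane-cutting ESCRT machinery to the midbody at the end of cell division, and was the most abundant member per length, at 53.7 ± 4.5 FPKM in DMSO (SD, n = 3). CEP55 lay at 166, 192 and 170 CPM in DMSO, at 159, 185 and 166 CPM at 0.3 μM and at 193, 202 and 206 CPM at 1 μM. In these TMM-adjusted values the samples at 1 μM were above all others, the lowest of them by a narrow margin. Against DMSO the log2 fold change of 0.16 was not called (SE 0.06, adjusted p 0.105), and it was called at 0.24 when DMSO replicate 2 was left out (adjusted p 0.0063).

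Behind CEP55 the order of levels in DMSO was close. CEP170 had 16 ± 1.4, PCM1 15.9 ± 0.982, CEP85 15.8 ± 0.396, CEP170B 15.3 ± 1.99, CEP250 14.4 ± 1.1, NEDD1 14.3 ± 1.93 and CDK5RAP2 14.1 ± 0.784 FPKM (SD, n = 3). Neighbours in this order differed by less than the larger SD of the pair. At the other end HAUS7 had 0.224 ± 0.0795 FPKM, SPICE1 0.326 ± 0.0997 and CEP295NL 0.346 ± 0.0766, which lay about an SD apart or closer. The median member had 5.2 FPKM, beside 5.48 for the protein-coding genes tested. At 1 μM CCDC14 had 7.48 and CEP152 3.72 FPKM, after 13.6 and 8.4 FPKM in DMSO.

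**Figure D3:**
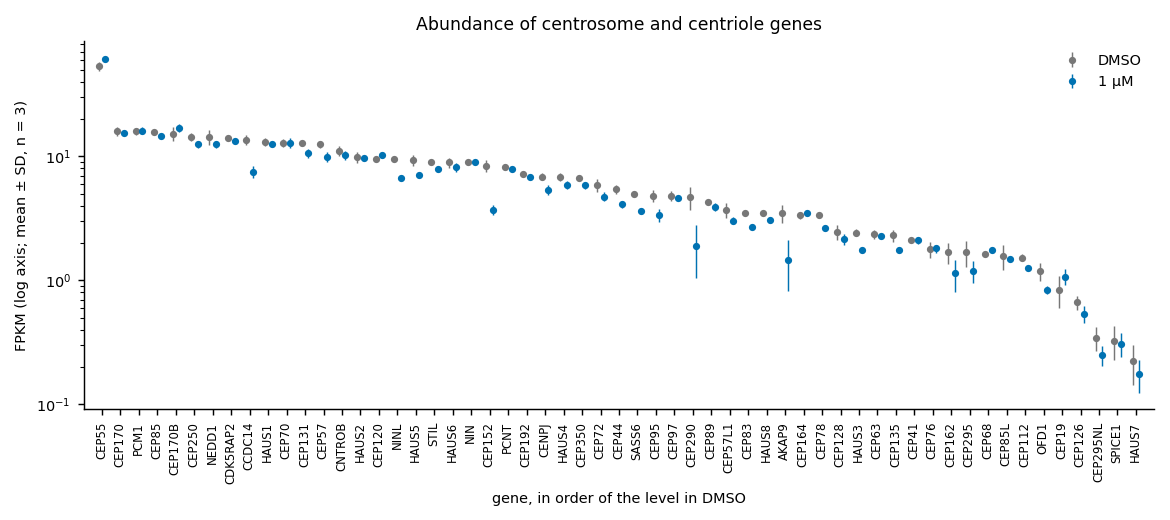
FPKM on a log axis for 57 of the 58 members in DMSO (grey) and at 1 μM (blue), as mean ± SD (n = 3), in order of the level in DMSO. CEP55 lies above the rest at 53.7 FPKM, HAUS7 is lowest at 0.224, and the gap between grey and blue is widest for CEP290, AKAP9 and CEP152.

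At 0.3 μM against DMSO no member was called by edgeR (0 of 58), and the share over all 15762 genes tested was 0%. With no adjustment 1 member had p under 0.05, namely CCDC14, where 3.77% of all genes tested did, and DESeq2 also called 0 members. CCDC14 had a log2 fold change of -0.19 (interval -0.35 to -0.03, unadjusted p 0.0231, adjusted p 0.995). It alone of the members had groups that did not overlap, which is 1.72% of them, beside 4.23% of all genes tested that lay lower without overlap. The median over the members was -0.04 and the values ran from -0.46 to 0.13. For the 4 members past 1.5-fold at 1 μM the intervals at 0.3 μM did not reach the values fitted at 1 μM, since beside that of CCDC14 that of CEP152 ran from -0.26 to 0.10, that of AKAP9 from -0.19 to 0.24 and that of CEP290 from -0.32 to 0.17. For CEP250, STIL, OFD1, CEP72 and HAUS3 the intervals at 0.3 μM did reach them, as for CEP250 with -0.26 to 0.06, so that a difference of that size was not excluded at the lower dose. Both comparisons share the DMSO samples.

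**Figure D4:**
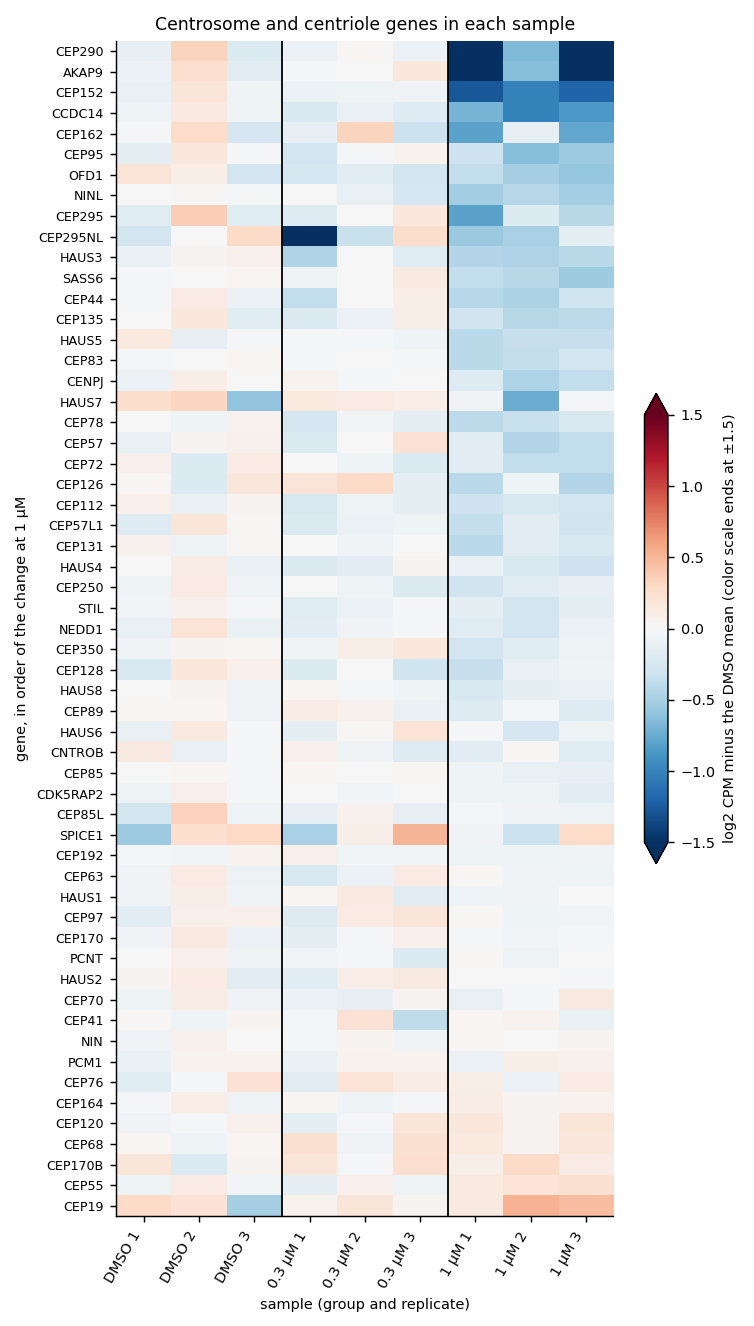
Log2 CPM minus the DMSO mean for 57 of the 58 members in each of the 9 samples, in order of the change at 1 μM. The columns at 1 μM are blue, that is lower, for the upper rows from CEP290 down, the columns at 0.3 μM are near white, replicate 2 at 1 μM is paler in CEP290, AKAP9, CEP162 and CEP295, and the single dark cell at 0.3 μM belongs to CEP295NL, which had 0.226 CPM there.

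The doses were also compared with each other. At 1 μM against 0.3 μM 14 members fell and 1 rose, so that 24.1% of members were called lower beside 6.36% of protein-coding genes, while 6.93% of protein-coding genes were called higher. The median was -0.12, and the same 4 members passed 1.5-fold, beside 187 of 12905 protein-coding genes called lower and past 1.5-fold. CEP152 had -1.10 (SE 0.08, adjusted p 8.3e-07), AKAP9 -1.27 (SE 0.18, adjusted p 0.000251), CEP290 -1.22 (SE 0.18, adjusted p 0.000438) and CCDC14 -0.68 (SE 0.08, adjusted p 4.06e-05). NINL fell by 0.37 (adjusted p 0.00709) and HAUS5 by 0.33 (adjusted p 0.00786). CEP55 rose by 0.23 (SE 0.07, adjusted p 0.0298), a change of 17.2%, a call that was lost in 5 of the 6 fits with a sample left out. Without replicate 3 at 1 μM 7 members were called lower, and without replicate 2 at 0.3 μM 8 were.

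Other centrosome genes outside the membership rule were counted from a list of 44, all tested. Of these 14 fell (31.8%, beside 8.99% of protein-coding genes) and 1 rose (beside 9.13%) at 1 μM, the median was -0.12, and 0 were called at 0.3 μM (1 with an unadjusted p under 0.05). PLK4, the kinase that starts duplication and docks on CEP152, had -0.24 with an adjusted p of 0.0691 and was not called. TUBG1, the gamma-tubulin that seeds microtubules, fell by 0.24 (adjusted p 0.0362), TUBGCP6 of its ring complex by 0.54 (adjusted p 0.000195) and CCP110, the cap of the centriole, by 0.23 (adjusted p 0.041). AURKA, a kinase of centrosome maturation, rose by 0.23 (adjusted p 0.00876).

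Genes of cell cycle phases moved in the same samples. Beside the counts of this paragraph, 8.99% of the protein-coding genes tested were called lower at 1 μM and 9.13% higher. Of 15 S phase markers 13 fell and 0 rose at 1 μM, with a median of -0.30, and their summed level was 2.35e+03 to 2.4e+03 CPM in DMSO, 2e+03 to 2.41e+03 CPM at 0.3 μM and 1.94e+03 to 2.04e+03 CPM at 1 μM. Of 15 markers of G2 and M phase 5 fell and 2 rose, with a median of 0.02, and the sums were 4.47e+03 to 4.89e+03, 4.46e+03 to 4.71e+03 and 4.02e+03 to 4.41e+03 CPM. The members summed to 3.14e+03 to 3.4e+03, 3.07e+03 to 3.21e+03 and 2.84e+03 to 2.91e+03 CPM. Of 6 fibroblast markers 3 were tested and 2 fell, while the other tested marker had a log2 fold change of 0.33 and was not called. Their sums, most of them COL1A1, were 442 to 619 CPM in DMSO and 386 to 442 CPM at 1 μM. The part of these lists in the change of the members was not tested, and in bulk RNA fewer cells of a phase and less RNA per cell cannot be told apart.

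Over the promoters, 51 of the 58 members were matched by symbol to a RefSeq window of 250 bases before to 50 after the start. The ETS letters CCGGAAG, on either strand, were in 11 of 51 members (21.6%), 5 of 19 called members (26.3%) and 6 of 32 not called (18.8%), beside 19.1% of 10521 windows of protein-coding genes tested and 10.7% of all 27305 windows. SASS6 and OFD1 held 2 matches each, as did HAUS6 and NEDD1, which were not called. The letters TTTGAA were in 27.5% of members, 31.6% of those called and 25% of those not called, beside 9.63% of protein-coding genes tested and 15.4% of all windows. The E2F letters TTTCCCGC or TTTGGCGC were in 4 of 51 members (7.84%), beside 3.72% and 2.31%. These shares are descriptions with no test.

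The GC content of the members had a median of 42.3%, beside 49.7% for the protein-coding genes tested. Over the 58 members, which share the same libraries, the log2 fold change at 1 μM had r = 0.24 (rho = 0.24) with GC content and r = -0.17 (rho = 0.04) with gene length. The study's methods name a stranded mRNA library kit, but whether counting used strand is not given in the sources used here. Exon bases are shared with another expressed gene in 17 members, mostly on the opposite strand. For the 4 members past 1.5-fold this touched little, namely 0.407% of the exon bases of AKAP9, shared with CYP51A1, and 1.59% of those of CEP290, shared with C12orf29. It was larger for CEP57, of which MTMR2 covers 20.9%, and for CEP72, of which TPPP covers 11.3%, so reads of these pairs could be split.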

How the data were processed

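RNA-seq was analysed for 9 samples of KHM-5M cells in 3 groups. Per the study's methods the reads were aligned to GRCh38 with Hisat2 and counted with HTseq, while the submitters' processing notes name HISAT2 2.0.5, featureCounts 1.5.0-p3 and DESeq2 1.20.0, and the methods give fewer replicates than the labels. The authors deposited whole-number counts per gene without normalization. The authors also deposited FPKM, which divide the counts by gene length and library size. Their columns of group means, fold changes and p-values were not used. Counts were tested with edgeR 4.0.16 (TMM, filterByExpr with a minimum count of 10, glmQLFit and glmQLFTest on the groups compared) in R 4.3.3, with Benjamini-Hochberg adjustment over all genes tested. Tables used Python 3.11.15 and pandas 2.3.3. DESeq2 1.42.0 and the alternatives named in the closing section were run on the same counts, with lowess (span 0.3) for GC content and gene length, and the steps were tested on simulated data. Log2 CPM for ratios used a prior count of 2.

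Members and gene lists were chosen with earlier results of these data known. Values were printed for called members with the smallest p in the comparison at 1 μM, members past 1.5-fold, the most abundant member of each role, those leading the comparison of doses and other members of a role set beside them. The values of 1 member and 1 marker are not reported here, and that member is left out of the figures. Within groups each pair of samples differed beyond counting error, with 3.39 to 11.8 for chi-square over its degrees of freedom, and none was counted as a copy.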

Additional observations from a re-analysis of the deposited data

How the results depend on the processing

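All 21 members that fell at 1 μM stayed below 0 in each of 14 alternatives, and 13 were called in all 14 (CEP152, CCDC14, NINL, AKAP9, CEP290, CEP95, CEP44, SASS6, HAUS5, CEP78, HAUS3, CEP57 and CEP83). The fewest of the 21, 14, were called without replicate 2 at 1 μM. DESeq2 called 17, and fits with a sample left out called 15 to 20 members lower. The shares of all genes called in the alternative fits are not given here, so these counts of members cannot be set beside them. With both replicate 2 samples left out, an alternative added after seeing the data, 19 were called lower and 1 higher (CEP55), and CEP170B, not called, turned to -0.02. Called higher at 1 μM were 2 members with the GC correction (CEP55 and CEP170B), 1 with no filter beyond 1 count, and 0 to 1 with a sample left out. Between the doses, fits with a sample left out called 7 to 15 members, 7 to 15 of them lower and 0 to 1 higher. The change of PCM1, 0.00 against DMSO and not called, was 0.01 with DESeq2 and with the GC correction, 0.00 with RLE size factors and with all 9 samples in 1 fit, 0.04 with the gene length correction, 0.03 with no filter beyond 1 count, and -0.05 to 0.06 with a sample left out. The cause of these shifts was not tested.

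Same-numbered samples were treated as unpaired in the main fits. The correlations of their deviations did not pass 0.1, which does not exclude a pairing. These were -0.0218, 0.00223 and 0.0553 between 1 μM and DMSO, where not every sample correlated best with its own number, and 0.0816, 0.0652 and 0.0199 between 0.3 μM and DMSO, where every sample at 0.3 μM did. With the replicate block 18 members were called lower at 1 μM, 16 of them among the 21 (CEP250, CEP350, STIL, CEP72 and OFD1 were lost), 15 lower and 1 higher between the doses, and 0 at 0.3 μM. In edgeR's test with this block AKAP9 had -1.31 (adjusted p 6.96e-05) and CEP290 -1.36 (adjusted p 5.76e-05) at 1 μM against DMSO, both smaller adjusted p than in the main fit. Counts of members near 1 CPM, as for HAUS7 and CEP295NL, limit what can be read from them.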

Other observations

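The higher level in replicate 2 at 1 μM was also found in 2 genes outside the membership rule, looked up after the values were seen. CENPF, a kinetochore and spindle protein, lay at 398, 493 and 366 CPM in DMSO and at 164, 374 and 190 CPM at 1 μM, and ASPM, a protein of the spindle pole, at 202, 245 and 189 CPM and at 113, 205 and 116 CPM. In both the second sample was the highest of its group in DMSO and at 1 μM, as in AKAP9 and CEP290.

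Pseudogene copies of members held few reads. CEP170P1 had a mean count of 21.9 beside 3.02e+03 for CEP170, and HAUS6P3 had 11.7 beside 1.22e+03 for HAUS6. CEP170P1 was tested at 1 μM and had a log2 fold change of 0.21 (SE 0.46, adjusted p 0.802). CEP83-DT, a long RNA divergent to CEP83, had a mean count of 12.9 and a log2 fold change of -0.13 (SE 0.44, adjusted p 0.875), where CEP83 itself fell by 0.38.

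Outside the membership rule the genes of centriole structure and length lay below 0 in all 11 cases at 1 μM, and 4 of the 11 fell (36.4%, beside 8.99% of protein-coding genes). WDR90, of the inner centriole wall, lay at 43, 30 and 37.1 CPM in DMSO and at 25.6, 20 and 22.3 CPM at 1 μM, and fell by 0.72 (SE 0.12, adjusted p 0.00128). RTTN, which acts in building full-length centrioles, lay at 45.7, 45.4 and 46 CPM and at 34, 35.2 and 33.9 CPM, and fell by 0.44 (SE 0.07, adjusted p 0.000798). In both genes all 3 samples at 1 μM were below those in DMSO. FBF1, of the distal appendages, fell by 0.68 (SE 0.15, adjusted p 0.008) at 4.13 to 7.15 CPM. Of 5 genes of satellites and ubiquitin ligases 0 were called (0 with an unadjusted p under 0.05).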
